A study of Mus musculus with 16 samples.

Results

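The 10 genes Havcr1, Lcn2, Spp1, Clu, Vim, Krt8, Krt18, Cd44, Anxa2 and Cdkn1a, known as markers of injured or dedifferentiated kidney tubules, were followed in kidneys of mice that lack, per their label, the peroxisomal enzyme MFP2. They were chosen by name, as the probes that the array's annotation assigns to one of these symbols, to ask whether the kidneys show tubular damage. Of these 10 genes, 8 were measured, with 10 of the 20355 probes of the array. Lcn2 and Vim had 2 probes each, and Clu, Krt8, Krt18, Cd44, Anxa2 and Cdkn1a had 1 each. Havcr1 and Spp1 were not analysed here, as no probe was assigned to either gene.

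The mutants were 4 males labelled MFP2-/-, 15 weeks old, and their whole-kidney RNA was hybridised one animal at a time. The control was 1 pool of RNA from 5 wild-type males of the same age, of the Swiss strain SWR/Ola Hsd. The sources used here give neither the strain background of the mutants nor the way in which the gene was disrupted, so a strain difference and the genotype cannot be told apart. Each mouse had 4 two-colour cDNA arrays, 2 with its RNA in the dye Cy5 and 2 with it in Cy3, which gave 16 arrays with 19737 to 20228 values each. Each value is a log2 ratio, read as mutant over pool, so 0 means equal signal in both channels. The 4 arrays of a mouse share its RNA, so they were averaged and n counts 4 mice, and the pool hides how wild-type animals vary. The arrays carry ratios and no signal levels, so whether a marker is abundant or scarce in these kidneys could not be read, and neither could the presence of kidney-defining genes. Their number limits the precision of every value.

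When a nephron segment is damaged, surviving epithelial cells lose part of their specialised transport machinery, flatten, and switch on genes of the embryonic or repairing epithelium. Secreted and shed proteins such as neutrophil gelatinase-associated lipocalin, the product of Lcn2, are used as urinary signs of that state. Others mark the change in shape: the intermediate filament proteins vimentin and keratins 8 and 18, the hyaluronan receptor CD44 and the membrane-binding protein annexin A2. Cdkn1a encodes p21, which stops the cell cycle after damage. Several of these genes are also active in uninjured kidney, Clu and the keratins in distal segments, and in leukocytes or fibroblasts. In whole-kidney RNA, a change in the share of such cells and a change of RNA per cell cannot be told apart.

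No marker passed the test against the pool. Of the 8 measured markers, 4 had a mean log2 ratio above 0 and 4 below, with a median of -0.01, against 0.00 over all 16140 rows tested (9846 genes and 6294 probes without a gene name). The means ran from -0.27 for Krt18 to 0.13 for Anxa2. Limma with Benjamini-Hochberg adjustment over all rows called 0 of the 8 at 0.05, with adjusted p from 0.584 to 0.963, and it called 0 rows (0%) in all. At an unadjusted p under 0.05 the count was also 0 of 8, where 9.04% of all rows were past it. An unmoderated test called 0 of 8 and 0 rows. A fit of single arrays that kept the mouse as a random block called 0 of 8 markers, where it called 1.37% of rows (182 higher and 39 lower), and it had 1 of 8, Krt18, at an unadjusted p under 0.05, where 14.1% of rows had one. The median size of the mean ratio, sign left aside, was 0.05 for the markers and 0.08 for all rows, and the median SD over mice was 0.19 for the markers and 0.15 for all rows.

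The 95% limma intervals describe the mean of these 4 mice, with the pool taken as exact. Limma draws the variance of each row toward that of all rows, so the bounds do not rest on the 4 mice alone. Intervals from the 4 mice alone were not computed and could be wider. All 8 limma intervals included 0, as the plot of intervals shows. On the linear scale the highest upper bound was 1.29-fold, for Clu, and the lowest lower bound was 0.66-fold, for Krt18. As read, mutant over pool, all 8 upper bounds lay under 1.5-fold, and with the sign turned 7 of 8 did, Krt18 having 1.51-fold. The lower bounds of the other 7 markers lay between 0.77-fold, for Krt8, and 0.96-fold, for Anxa2.

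**Figure D1:**
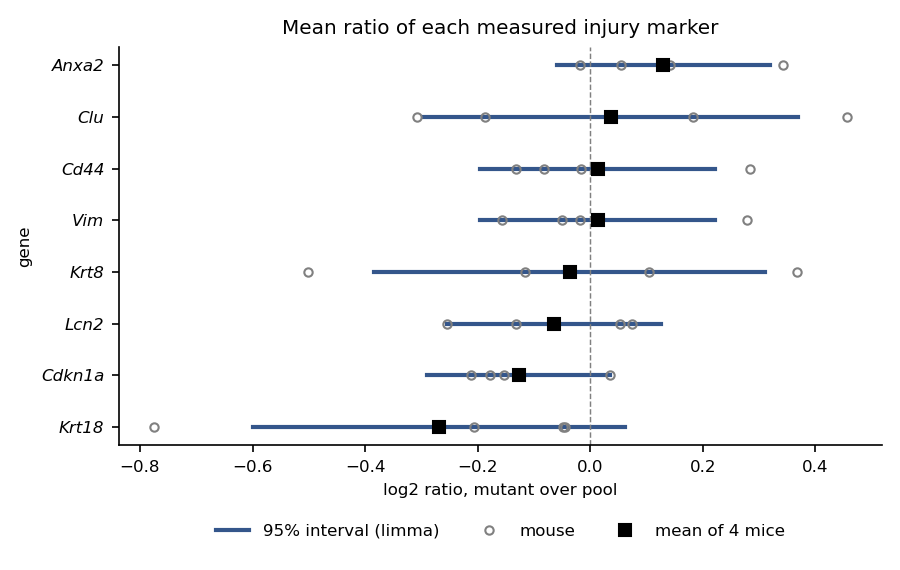
Mean log2 ratio (x axis, mutant over pool) of the 8 measured markers (y axis). Squares are means of 4 mice, open circles single mice and lines 95% limma intervals. All 8 lines cross 0, and Krt18 lies lowest at -0.27. It does not hold that place without mouse 2 or when the values are read as Cy5 over Cy3.

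The direction rests on an inference. Channel 1 is the mutant's on each of the 16 arrays in the labels, and the sign was assumed to run mutant over pool in both dye orientations. If the sign were opposite throughout, every higher value would be a lower one, and no call would change. If the values were Cy5 over Cy3 instead, limma called 0 of the 8 markers and 12 rows in all. Under that reading the order of the markers changed, with Krt8 lowest at -0.20, Cdkn1a highest at 0.03, Krt18 at 0.01 and Anxa2 at -0.04. The targeted gene did not settle it: of the 2 probes of Hsd17b4, which encodes MFP2, probe 4590 had a mean of -0.91 ± 0.80 (SD, n = 4) and probe 1446 a mean of 0.43 ± 0.34. The column medians lay between -0.15 and 0.10 before centring. Mouse 2 had the fewest values and the most spots at an extreme value, 55 to 71 per array against 12 to 35 on the arrays of other mice.

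Promoters are shown for the filament partners Krt8 and Krt18, whose log2 ratios had a Pearson r of -0.06 across arrays, and for Lcn2, whose r with Krt18 was 0.71. They are RefSeq sequences of build GRCm38.p6, 250 bases before to 50 after the annotated start, read on the strand of the gene: Krt8 at chr15:102004293-102004592 on the minus strand, Krt18 at chr15:102027966-102028265 on the plus strand and Lcn2 at chr2:32387690-32387989 on the minus strand. Of the 8 measured markers, 7 had an entry in that table, and Clu had none. Capitals mark a TATA box (TATAAA, gene strand only), a GC box (GGGCGG, both strands), an AP-1 motif (TGANTCA, both strands) or an NF-kB motif (GGG, any 2 bases, TTTCC, both strands), and no marked motifs overlap in these 3 sequences.
Krt8: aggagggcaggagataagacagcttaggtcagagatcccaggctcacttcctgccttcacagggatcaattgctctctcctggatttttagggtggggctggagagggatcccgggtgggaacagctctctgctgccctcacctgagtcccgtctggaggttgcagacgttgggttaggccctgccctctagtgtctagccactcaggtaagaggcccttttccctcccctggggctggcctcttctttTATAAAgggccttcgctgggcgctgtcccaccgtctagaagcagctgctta
Krt18: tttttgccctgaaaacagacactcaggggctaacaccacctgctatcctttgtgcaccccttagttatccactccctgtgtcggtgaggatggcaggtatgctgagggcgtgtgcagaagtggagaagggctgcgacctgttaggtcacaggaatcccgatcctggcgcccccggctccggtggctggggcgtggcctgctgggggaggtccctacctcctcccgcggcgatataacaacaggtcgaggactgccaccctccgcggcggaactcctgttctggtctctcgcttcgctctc
Lcn2: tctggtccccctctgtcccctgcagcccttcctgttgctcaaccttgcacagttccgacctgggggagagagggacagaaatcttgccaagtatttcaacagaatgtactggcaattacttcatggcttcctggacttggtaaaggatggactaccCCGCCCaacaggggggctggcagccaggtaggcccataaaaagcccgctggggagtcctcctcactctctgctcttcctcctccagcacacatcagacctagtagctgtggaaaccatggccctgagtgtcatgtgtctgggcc

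Krt8 and Krt18 lie on the same chromosome on opposite strands. The Krt8 window held 1 TATA box, which 8.32% of the 32851 windows of this length in the table held. That match began at position -1 from the annotated start and so spanned the start itself. The Krt18 window held none of the 4 motifs. The Lcn2 window held 1 GC box, found in 35.7% of windows. None of the 3 held the AP-1 or the NF-kB letters, which 7.81% and 1.63% of windows held. Among the other markers, Anxa2 held an AP-1 motif, a TATA box and 3 GC boxes, and Vim an NF-kB motif and a TATA box. Cd44 held 1 GC box. For Cdkn1a, the window from chr17:29093519 held 2 GC boxes and that from chr17:29090729 held none of the 4 motifs. A match is a description of letters, and a missing one says only that these letters are not in this window.

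Among the secreted markers, Lcn2 encodes the lipocalin that carries bacterial siderophores and iron, and its product is the one most used in urine (NCBI gene 16819, probes 1756 and 4436). Its log2 ratio, averaged over both probes, was 0.05, -0.25, 0.07 and -0.13 in mice 1 to 4. Mice 1 and 3 were thus just above the pool, and mice 2 and 4 below it. The mean was -0.06 ± 0.16 (SD, n = 4), and the interval ran from 0.84-fold to 1.09-fold (limma adjusted p = 0.789).

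The 2 Lcn2 probes differed in precision. Probe 1756 ranged from -0.46 to 0.18 over 16 arrays with a median of -0.03, and the SD between repeat arrays of the same mouse and dye was 0.16. Probe 4436 ranged from -0.70 to 0.81 with a median of -0.06, and its SD between repeats was 0.29, close to the 0.27 that was the median over all probes. Both means lay below 0, at -0.10 ± 0.07 and -0.03 ± 0.25 (SD, n = 4). Across the 16 arrays, with the mean of each orientation taken off, the probes had a Pearson r of 0.46. The orientations differed in sign: the 4 mice had a mean of -0.20 when Cy5 labelled the mutant and 0.07 when Cy3 did. Lcn2 was the 1 marker of 8 with an unadjusted p under 0.05 for dye orientation in limma, where 29.9% of rows had one. After adjustment 0 of the 8 markers and 8.4% of rows were called for dye, and Lcn2 had a limma adjusted p of 0.108.

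Clu encodes clusterin, a secreted chaperone that binds unfolded proteins (gene 12759, probe 2817). Mice 1 to 4 had -0.31, 0.46, -0.19 and 0.18. Their mean was 0.04 ± 0.35 (SD, n = 4; limma adjusted p = 0.933). Single arrays ran from -0.47 to 0.85 with a median of -0.11. All 4 arrays of mouse 1 and all 4 of mouse 3 were below 0, all 4 of mouse 2 were above it, and mouse 4 had 1 of 4 below. The order of the mice was the same in both orientations: -0.34, 0.27, -0.19 and 0.04 when Cy5 labelled the mutant, and -0.28, 0.64, -0.18 and 0.33 when Cy3 did. The repeat SD was 0.17, lower than for all but 13.8% of probes.

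**Figure D2:**
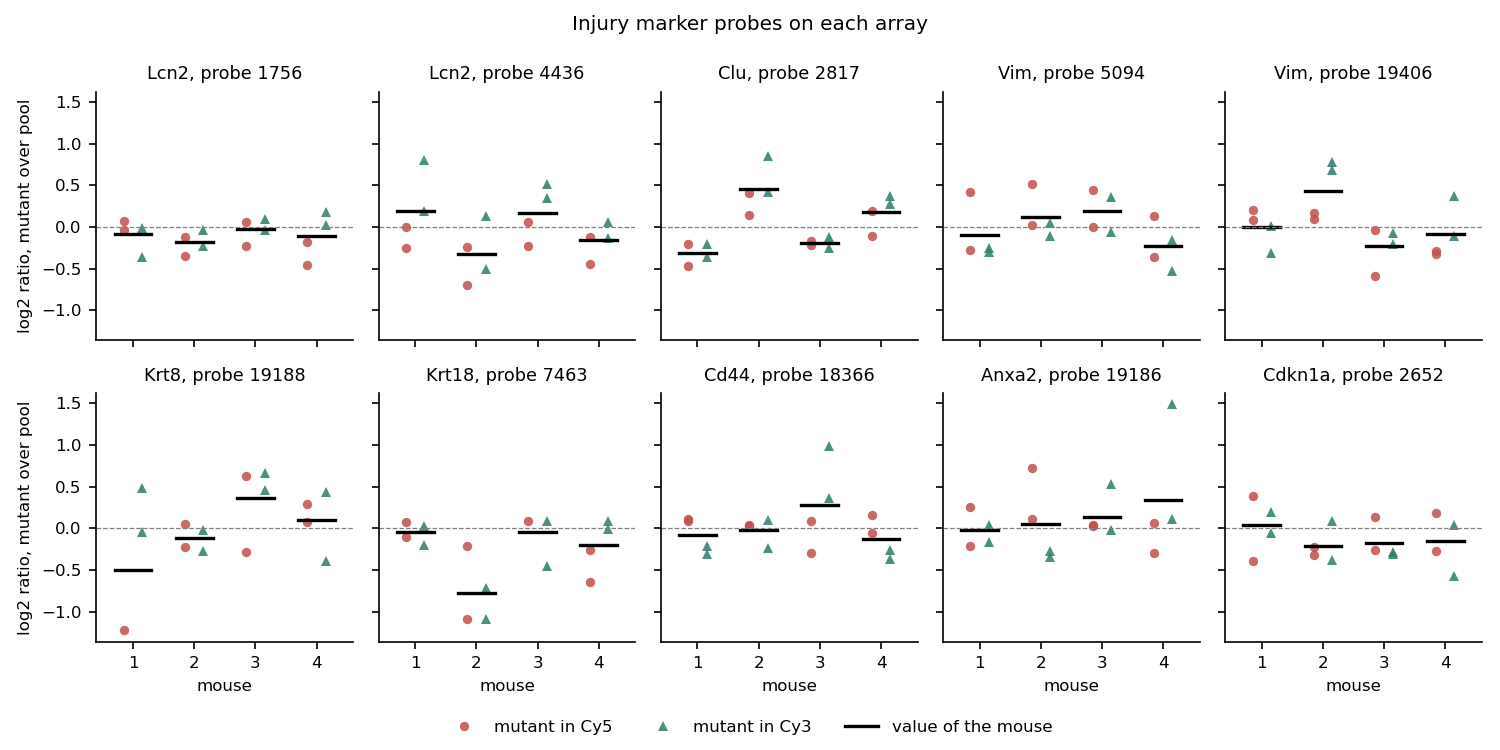
Log2 ratio (y axis, mutant over pool) of the 10 marker probes by mouse (x axis). Circles are arrays with the mutant in Cy5, triangles those with it in Cy3, and bars the value of each mouse; the arrays of mouse 2 stand high for Clu, between 0.14 and 0.85, and low for Krt18, between -1.09 and -0.21.

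Among the filament proteins, Krt18, the acidic keratin of simple epithelia, had the lowest mean of the markers in the reported fit, and a mean of 0.01 when the values were read as Cy5 over Cy3 (gene 16668, probe 7463). Its log2 ratios in mice 1 to 4 were -0.05, -0.78, -0.04 and -0.21, below 0 in 4 of 4. It was the 1 marker of 8 with the same sign in all 4 mice, where 19.4% of rows with 4 mice had one sign throughout. The mean was -0.27 ± 0.35 (SD, n = 4), which lay at percentile 1.98 of all rows, and the interval ran from 0.66-fold to 1.04-fold (limma adjusted p = 0.584). Over 15 arrays the values ran from -1.09 to 0.09 with a median of -0.20. Mouse 2 supplied much of the mean, and the other 3 mice gave -0.0998 without it. Krt18 was then no longer lowest, as Clu had -0.104.

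Krt8 encodes the basic keratin that pairs with keratin 18 in the same filament (gene 16691, probe 19188). The values of mice 1 to 4 were -0.50, -0.12, 0.37 and 0.10. Mice 1 and 2 were below the pool and mice 3 and 4 above it, with a mean of -0.04 ± 0.37 (SD, n = 4; limma adjusted p = 0.937). The lowest of its 15 arrays had -1.22, the median was 0.05 and the highest had 0.67. The value of mouse 1 rests on that lowest array, the only one it had with the mutant in Cy5, since its repeat had no value. On the other arrays of mouse 1 the ratio was -0.04 and 0.49. The mean over mice was -0.24 on the arrays of repeat 1 and 0.34 on those of repeat 2. Mouse 1 was left out of the repeat 2 mean, as it had no value there in Cy5. The sign of Krt8 thus differed between the repeats, but over different sets of mice. The keratin partners did not show one pattern: their Pearson r was -0.06 over the 14 arrays with both.

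Vim encodes vimentin, the filament protein of mesenchymal cells that injured proximal tubules re-express (gene 22352, probes 5094 and 19406). Averaged over the probes, mice 1 to 4 had -0.05, 0.28, -0.02 and -0.16. Mouse 2 alone was above the pool. The mean was 0.01 ± 0.19 (SD, n = 4), with an interval from 0.87-fold to 1.17-fold (limma adjusted p = 0.963). The probes disagreed in mouse 3, with 0.19 for probe 5094 and -0.22 for probe 19406, and their Pearson r over 16 arrays was 0.19. Probe 5094 ran from -0.53 to 0.52 with a median of -0.03, and probe 19406 from -0.59 to 0.78 with a median of -0.01. The high value of mouse 2 came mainly from probe 19406, with 0.43, against 0.12 for probe 5094.

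Among the membrane markers, Cd44, the receptor for hyaluronan and for osteopontin, had -0.08, -0.02, 0.28 and -0.13 in mice 1 to 4 (gene 12505, probe 18366). Mouse 3 alone was above the pool, and its value came from arrays with the mutant in Cy3, which gave 0.68, whereas those with it in Cy5 gave -0.11. The mean was 0.01 ± 0.19 (SD, n = 4; limma adjusted p = 0.963), and without mouse 3 it was -0.08. Single arrays ran from -0.37 to 0.99 with a median of 0.04.

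Anxa2 encodes annexin A2, which joins membranes to actin and pairs with S100a10 (gene 12306, probe 19186). Its mean was 0.13 ± 0.16 (SD, n = 4; limma adjusted p = 0.612), or percentile 83.0 of all rows. That was the highest of the markers in the reported fit, but not under every alternative: it was 0.06 without mouse 4, -0.0044 with the median over the arrays of a mouse and -0.04 read as Cy5 over Cy3, each below another marker. The mice had -0.02, 0.05, 0.14 and 0.34 in the order 1 to 4, above 0 in 3 of 4. Over 16 arrays the ratio ran from -0.34 to 1.49 with a median of 0.04. The highest value was 1 array of mouse 4, whose repeat in the same orientation had 0.11. The repeat SD of 0.43 was higher than that of 77.4% of probes.

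Cdkn1a, the p21 gene and a direct target of the tumour suppressor p53, had 0.03, -0.21, -0.18 and -0.15 in mice 1 to 4 (gene 12575, probe 2652). The 3 lower mice lay close together and mouse 1 just above the pool. The mean was -0.13 ± 0.11 (SD, n = 4), and the interval ran from 0.82-fold to 1.02-fold (limma adjusted p = 0.592). Its 16 arrays ran from -0.57 to 0.39 with a median of -0.25, and 6 of them were above 0.

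The mutants were also compared with each other, against the spread between arrays of the same animal. The F-test of limma, fitted to the 16 arrays with dye as a covariate, called 0 of the 8 markers after adjustment, where it called 0.189% of 15856 rows. At an unadjusted p under 0.05 it had 2 of the 8, Clu and Krt18, where 11.2% of all rows were past it. Clu ranked 57 of the 15856 rows, with a limma adjusted p of 0.0598, and its values spanned 0.77 on the log2 scale from mouse 1 to mouse 2, with an SE of 0.10 for each mouse. Krt18 spanned 0.73, with an SE of 0.16 and an adjusted p of 0.325. For the other 6 markers the adjusted p was 0.502 or more. The SE here comes from arrays of the same animal, so it does not measure the spread between animals. Under the reading as Cy5 over Cy3 the adjusted p was 0.977 for Clu and 0.921 for Krt18, and without mouse 2 it was 0.407 and 0.910.

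Over the arrays, Clu ran against Krt18 and Lcn2. With the mean of each orientation taken off, the Pearson r was -0.72 between Clu and Krt18 over 15 arrays, -0.69 between Clu and Lcn2 over 16, and 0.71 between Krt18 and Lcn2 over 15. These are descriptions with no test, since arrays of a mouse share its RNA and all arrays share the pool. Without mouse 2 the same values were -0.23 over 11 arrays, -0.40 over 12 and 0.35 over 11. Between repeats of the same mouse and orientation they were -0.71, -0.39 and 0.65. The signs were thus the same between repeat arrays, pooled over the mice, and the size of each r was smaller without mouse 2. Repeat arrays share the RNA of their animal, so the r between repeats describes variation between arrays. A link between animals was not tested. A correlation of the mouse values alone was not computed. Among the 28 pairs of markers, 5 had an r over 0.5 in size, the other two being Krt8 with Cdkn1a at -0.55 and Krt8 with Vim at -0.50. The median over all pairs was -0.08.

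**Figure D3:**
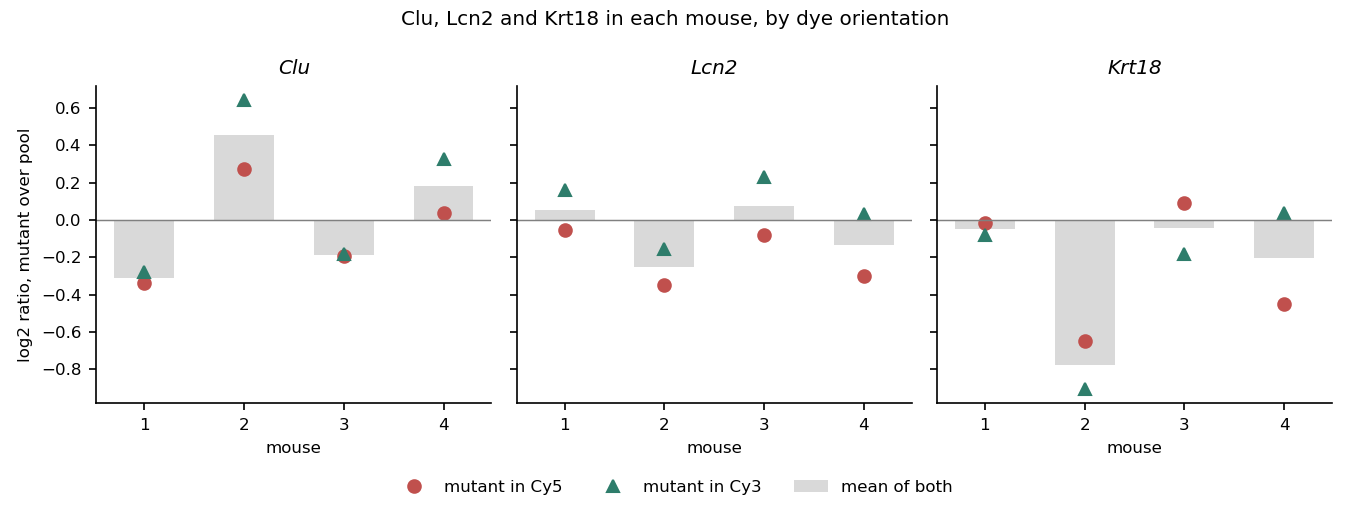
Log2 ratio (y axis, mutant over pool) of Clu, Lcn2 and Krt18 in mice 1 to 4 (x axis). Circles are arrays with the mutant in Cy5, triangles those with it in Cy3, and grey bars start at 0 and show the mean of both; mouse 2 has 0.46 for Clu and -0.78 for Krt18.

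The genes most like each marker over the arrays were taken from 9059 or 9060 genes with a value on every array that the marker had, by Pearson r with orientation means taken off. For Clu they were Rtn3, a reticulon of the endoplasmic reticulum, at 0.91, and Uqcrc2, a core subunit of respiratory complex III, also at 0.91. For Krt18 they were Atg7, an activating enzyme of autophagy, at 0.89, and the kinase Nek9 at 0.87. For Lcn2 they were Palm2 at 0.82 and Bpifb2 at 0.82, for Vim Smu1 at 0.91 and Gstk1 at 0.86, and for Krt8 Ttc39c at 0.83 and Cnga2 at 0.82. For Cd44 they were Dpagt1 and Rfx2, both at 0.90, for Anxa2 Zgpat at 0.84 and Trav14n-2 at 0.83, and for Cdkn1a Nup188 at 0.84 and Pitrm1 at 0.79. The median r over those genes lay between -0.05 and 0.04 for each marker. Each named gene was picked for having the highest r among all of them, so a high value follows from the picking. No r was tested. Uqcrc2 itself had -0.06, 0.71, 0.05 and 0.34 in mice 1 to 4, with mouse 2 highest and mouse 1 lowest, as for Clu. It was picked by its r with Clu on these same arrays, so the shared order is no separate observation.

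A wider list of 46 genes that injured tubules are known to induce was read beside the markers. Of these, 34 were measured, 17 above and 17 below 0, with a median of 0.00. Limma called 0 after adjustment, and 4 higher and 2 lower had an unadjusted p under 0.05, where 5.83% of all rows were higher and 3.21% lower at that p. The highest means were those of S100a6, a calcium-binding protein of proliferating cells, with 0.33 ± 0.25 (SD, n = 4), and Cd24a, a surface sialoglycoprotein of tubular progenitors, with 0.31 ± 0.27. The lowest among genes with 4 mice were Cxcl1, a neutrophil chemokine, with -0.24 ± 0.12, and Tnfrsf12a, the receptor of TWEAK, with -0.19 ± 0.13; both were below 0 in 4 of 4 mice. Neither direction prevailed in this list.

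Transport and enzyme genes that mark differentiated tubules are known to be lost on injury. Of the 35 listed, 22 were measured, 15 above and 7 below 0, with a median of 0.06 and 0 called by limma; 6 higher and 1 lower had an unadjusted p under 0.05, against 5.83% and 3.21% of all rows. The highest were Miox, the myo-inositol oxygenase of proximal tubule, with 0.66 ± 0.65 (SD, n = 4), and Slc12a1, the cotransporter of the thick ascending limb, with 0.56 ± 0.24. Miox was -0.25 in mouse 1 and between 0.67 and 1.25 in the others. The F-test between mice called Miox alone among the 21 genes tested here (limma adjusted p = 0.0332), and 0.189% of all rows. At an unadjusted p under 0.05 this F-test had 10 of the 21, where 11.2% of all rows were past it. The lowest with 4 mice were Slc34a1, the phosphate transporter of proximal tubule, with -0.20 ± 0.09, below 0 in 4 of 4, and Umod, the uromodulin gene, with -0.15 ± 0.20. The list medians were -0.08, 0.23, 0.10 and 0.16 in mice 1 to 4.

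The targets of p53, read beside Cdkn1a, had a median of -0.05 over 19 of 30 genes, 7 above and 12 below 0. Limma called 0 of them and had 2 lower at an unadjusted p under 0.05. Over all rows tested, 5.83% were higher and 3.21% lower at that p. Btg2, an antiproliferative gene, had 0.61 ± 0.81 (SD, n = 4) and Gadd45a, a DNA damage response gene, 0.20 ± 1.08. Plk2, a polo-like kinase, had -1.04 ± 0.60 and Tap1, a peptide transporter of antigen presentation, -0.42 ± 0.35. Cell cycle inhibitors and division genes had a median of 0.01 over 27 of 34, 14 above and 13 below 0, with 0 called, and 1 higher and 2 lower at an unadjusted p under 0.05. The replication helicase subunits differed in sign: Mcm7 had 0.35 ± 0.38 and Mcm2 0.32 ± 0.24, while Mcm3 had -1.23 ± 1.29, and Birc5, a mitotic gene, had -0.21 ± 0.74. Mcm3 ranged from -2.81 in mouse 2 to 0.12 in mouse 4.

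**Figure D4:**
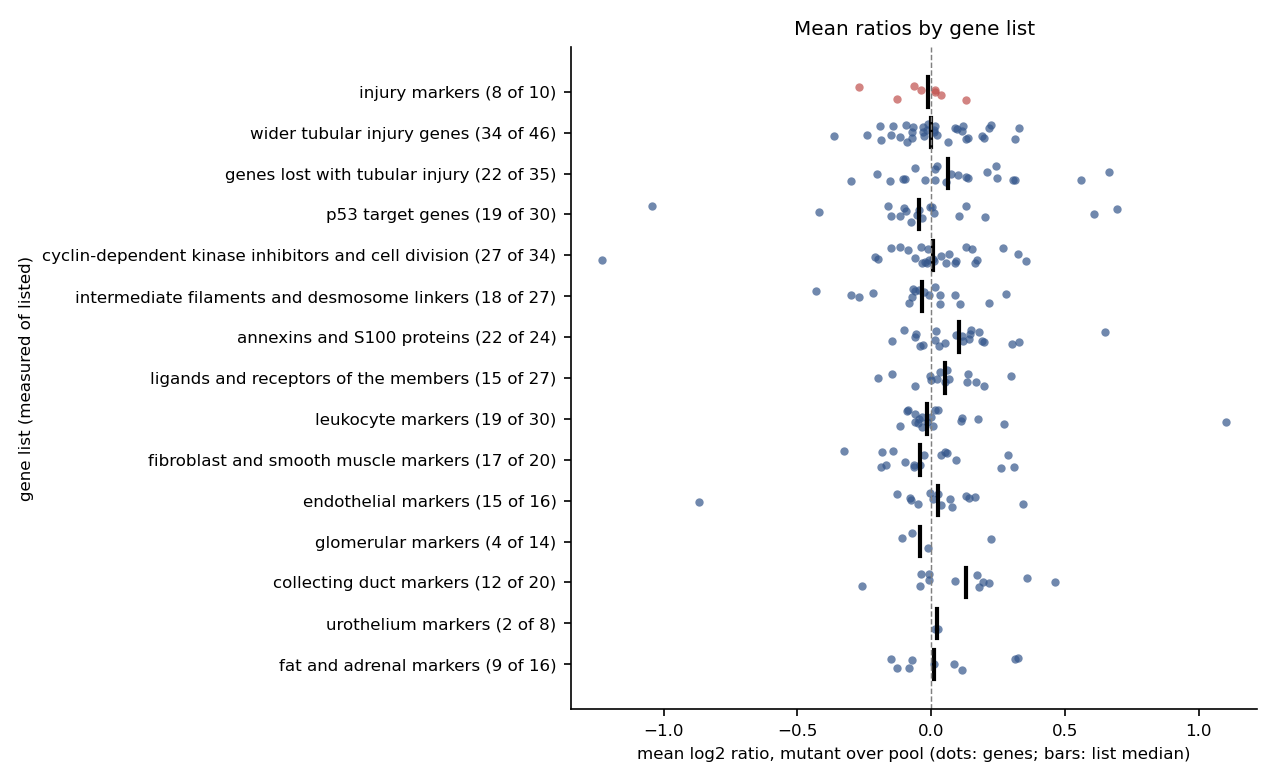
Mean log2 ratio (x axis, mutant over pool) of the measured genes of each list (y axis, with measured and listed numbers). Dots are genes, red for the injury markers, and bars are list medians, which lie between -0.05 for p53 targets and 0.13 for collecting duct markers.

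Other filament and linker genes had a median of -0.04 over 18 of 27, 7 above and 11 below 0. Limma called 0 of them and had 1 in each direction at an unadjusted p under 0.05. Across all rows tested, 5.83% were higher and 3.21% lower at that p. Krt7, a keratin of collecting duct and urothelium, had 0.22 ± 0.19 (SD, n = 4) and Lmnb2, a nuclear lamin, 0.11 ± 0.13. The epidermal keratins Krt10 and Krt14 had -0.30 ± 0.50 and -0.43 ± 0.84, and the Krt14 ratio with the mutant in Cy5 minus that in Cy3 was -1.84. Annexins and S100 proteins, the family of Anxa2 and its partners, had a median of 0.10 over 22 of 24, 16 above and 6 below 0, with 0 called and 3 higher at an unadjusted p under 0.05. S100g, the calcium buffer of distal tubule, was highest at 0.65 ± 0.39 and S100a6 next; S100a3 had -0.15 ± 0.14 and S100b -0.10 ± 0.14. Ligands and receptors of the marker proteins had a median of 0.05 over 15 of 27, 11 above and 4 below 0, with 0 called and 1 higher at an unadjusted p under 0.05. That gene was ezrin (Ezr), which ties CD44 to actin, with 0.30 ± 0.20, followed by radixin (Rdx) with 0.20 ± 0.23. The lowest were Has2, a hyaluronan synthase, with -0.20 ± 0.36, and Mmp9, a gelatinase, with -0.15 ± 0.36.

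Cell types that also make these markers were read from lists of their own. For each list, the share of all rows at an unadjusted limma p under 0.05 was 5.83% higher and 3.21% lower. Leukocyte markers had a median of -0.02 over 19 of 30 genes, 9 above and 10 below 0, with 2 higher at an unadjusted p under 0.05, running from -0.12 for C1qc to 1.10 for Was, with the pan-leukocyte gene Ptprc at -0.02 and the macrophage gene Cd68 at -0.06. Fibroblast and smooth muscle markers had a median of -0.04 over 17 of 20, 7 above and 10 below 0, with 1 in each direction at that p, from -0.32 for Col3a1 to 0.31 for Gsn. Collecting duct markers, the segment rich in keratins 8 and 18, had a median of 0.13 over 12 of 20, 7 above and 5 below 0, with 4 higher at an unadjusted p under 0.05, where 5.83% of all rows were, and Aqp2 highest at 0.46 ± 0.25 (SD, n = 4). The lowest mean of that list was that of Foxi1, at -0.26 ± 0.61 (SD, n = 4). Its medians were 0.09, 0.13, 0.15 and 0.10 in mice 1 to 4. Single genes spread widely around them: in mouse 2 they ran from -0.50 for Aqp4 to 0.81 for Aqp2. Medians were 0.03 for 15 of 16 endothelial, -0.04 for 4 of 14 glomerular, 0.02 for 2 of 8 urothelial and 0.01 for 9 of 16 fat and adrenal markers. At that p the endothelial list had 1 gene in each direction, the fat and adrenal list 1 higher, and the glomerular and urothelial lists 0. Limma called 0 genes of any of these lists for mutant over pool. The part of cell type shares in the ratios of the injury markers was not tested.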

How the data were processed

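Kidney RNA of 4 mutant mice and 1 wild-type pool was measured on 16 two-colour cDNA arrays. Per the labels' protocols, RNA was labelled indirectly with Cy3 or Cy5. The authors deposited 1 log2 ratio per probe and array. The sources used here do not state how they normalised or background-corrected it, nor its log base or direction. The log2 base was inferred from 510 spots with sizes of 16.1 to 17.0, read as 1 channel at a floor and left out (limit 10). Of 20355 probes, 14030 had 1 gene symbol in the platform annotation, 5 several and 6320 none; 13994 symbols were updated through gene identifiers of GRCm38.p6.

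Arrays were centred on their median, averaged within each dye orientation of a mouse and then over both. Probes with both orientations in at least 3 mice were kept (20187) and averaged by gene. Limma (version 3.58.1, R 4.3.3, statmod 1.5.0) tested the mean of 4 mice against 0, and, on all arrays, differences between mice (F-test) and dye orientation, with Benjamini-Hochberg adjustment over all rows at 0.05. The scripts were tested on simulated data. Nothing in the labels tells whether repeat arrays were separate extractions.

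The markers, the gene lists, the tests and the treatment of extreme spots were chosen with earlier results of these data known. Named genes were all markers, the 2 highest and 2 lowest genes with 4 mice of each list outside the cell type lists, and the 2 genes most like each marker; other genes were named after their values were seen. So were the motifs and promoters; a heat shock motif was searched first and dropped. Alternatives covered centring, scale, single probes, filters, medians, single orientations or repeats, extreme spots kept, the reading of direction, the prior, a random block and leaving out each mouse.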

Additional observations from a re-analysis of the deposited data

How the results depend on the processing

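The count of markers called was 0 under every alternative run, for mutant over pool, between mice and for dye orientation. Rows called for mutant over pool, 0 in the reported fit, were 3 with the mutant in Cy5 alone, 1 with it in Cy3 alone, 12 with values read as Cy5 over Cy3 and 221 with all arrays and the mouse as a random block (estimated correlation within a mouse 0.04, close to treating arrays as separate mice). Rows called between mice, 30 in the reported fit, were 16 with scaled arrays, 48 with each probe on its own, 2 with values read as Cy5 over Cy3, and 5 to 13 when 1 mouse was left out. Rows called for dye orientation, 1332 in the reported fit, were 2740 without centring and 44 to 2701 when 1 mouse was left out, the highest without mouse 2. The median of the 8 markers ran from -0.0933 without mouse 3 to 0.0397 without mouse 1. Over 16 alternatives there were 128 values of single markers or their probes: 3 moved by more than 1 SD over mice, and 24 had the opposite sign to the reported mean, all of them uncalled. The cause of these changes was not tested. The precision is limited by 4 mice, 1 pool and the unknown signal over background.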
